A study of Mus musculus with 6 samples.

Results

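The genes described here encode the machinery that prepares replication origins, opens them and carries the DNA replication fork. They were 49 genes chosen by symbol (origin recognition, licensing, helicase, polymerase, clamp, ligase, single-strand binding, fork protection and chromatin assembly factors), out of 25407 rows in the deposited table, and each symbol was found on 1 row. RNA was measured in the mouse colon carcinoma line CT26.WT, in 3 libraries of cells treated with Cu2O@AuMn@HA plus NaHS plus NIR and in 3 libraries of control cells. Cu2O@AuMn@HA is the nanoplatform named in the study's title, NaHS is sodium hydrosulfide, which releases hydrogen sulfide, and NIR is near-infrared light. No dose, exposure time, light power or harvest time is given in the sources used here, and no arm received only part of the treatment, so its components cannot be told apart. All libraries came from the same cell line, and no genetic change is named in either group. The labels do not state whether libraries with the same treatment were separate cultures, so each p-value reflects the spread among these libraries alone, and that spread may be technical.

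Library totals were 62328377 to 70323604 estimated counts in treated libraries and 71409968 to 81821380 in control libraries. Of epithelial and colon markers, the keratin gene Krt18 had 163 ± 9.97 FPKM in treated cells and 65.4 ± 5.94 FPKM in control cells (SD, n = 3 each), and Krt20 went the other way, with 57.5 ± 4.22 FPKM in treated cells and 90.3 ± 3.00 FPKM in control cells. Epcam, Cdh1 and Cldn7 were listed at 0 in all control libraries and reached at most 0.0609 FPKM in treated libraries. The summed level of the 10 epithelial markers was 225 to 238 FPKM in treated libraries and 153 to 170 FPKM in control libraries. The summed level of the 7 leukocyte markers found was 58.6 to 67.1 FPKM in treated libraries and 30.9 to 31.2 FPKM in control libraries. Most of it was Cd68, a lysosomal gene, with 61.0 ± 5.43 FPKM in treated cells and 27.7 ± 0.360 FPKM in control cells, while Lyz2 had 2.70 ± 0.751 FPKM in treated cells and 2.74 ± 0.272 FPKM in control cells, and the pan-leukocyte gene Ptprc was listed at 0 in 5 of the 6 libraries. The summed level of the 7 fibroblast and endothelial markers was 59.4 to 67.3 FPKM in treated libraries and 92.0 to 100.3 FPKM in control libraries, mostly from the collagen genes Col1a1 and Col1a2, both lower in treated cells. Dcn, of the same list, went the other way, with 0.925 ± 0.106 FPKM in treated cells and 0.191 ± 0.0260 FPKM in control cells. For Pdgfra the groups overlapped, at 0.719 ± 0.0817 FPKM in treated cells and 0.626 ± 0.0921 FPKM in control cells. The part of these shifts in the results below was not tested.

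In each cell cycle, the origin recognition complex binds origin DNA, and Cdc6 and Cdt1 load the ring-shaped MCM helicase onto it in G1. Dbf4-dependent Cdc7 kinase and cyclin-dependent kinases then turn the loaded rings into active helicases with Cdc45 and the GINS complex, polymerase alpha-primase starts each strand, and polymerases epsilon and delta extend them on the sliding clamp PCNA. Geminin blocks Cdt1 after origins have fired, so that a region is copied only once, and transcription of many of these genes is switched on near the start of S phase by E2F factors. In bulk RNA, fewer cells in S phase and less replication RNA per cell cannot be told apart.

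Promoter windows were read because E2F factors are known regulators of these genes. The windows are those of RefSeq on GRCm38.p6, 300 bases long (250 bases before and 50 bases after the start of a gene). Windows existed for 39 of the 49 genes, 46 windows in all. Shown are the windows of the 4 genes with the lowest and the 2 with the highest fold change among genes that had a window, in transcript direction. Capitals mark the E2F-type letters searched, TTCCCGC as well as its variants TTGGCGC, also TTCGCGC, and finally TTGCCGC, searched on both strands (so that the reverse complements count too), with overlapping matches merged into a single stretch. The windows lie at chr11:98907901-98908200 (plus strand) for Cdc6, chr14:47276808-47277107 (minus strand) for Wdhd1, chr8:75109259-75109558 (plus strand) for Mcm5, chr19:5964157-5964456 (minus strand) for Pola2, chr16:23127681-23127980 (minus strand) for Rfc4 and chr5:22550289-22550588 (minus strand) for Orc5.
Cdc6: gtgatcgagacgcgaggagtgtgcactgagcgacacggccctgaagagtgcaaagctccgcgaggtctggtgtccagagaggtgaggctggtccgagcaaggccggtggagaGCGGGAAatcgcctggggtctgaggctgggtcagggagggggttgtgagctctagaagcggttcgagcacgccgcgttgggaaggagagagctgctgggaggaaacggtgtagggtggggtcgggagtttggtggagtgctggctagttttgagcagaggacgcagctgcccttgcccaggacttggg
Wdhd1: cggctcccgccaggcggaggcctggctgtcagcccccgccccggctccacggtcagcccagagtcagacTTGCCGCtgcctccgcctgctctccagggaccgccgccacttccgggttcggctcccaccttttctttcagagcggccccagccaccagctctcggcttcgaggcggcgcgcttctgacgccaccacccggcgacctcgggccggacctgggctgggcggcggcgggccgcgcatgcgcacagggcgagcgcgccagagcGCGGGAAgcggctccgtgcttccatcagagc
Mcm5: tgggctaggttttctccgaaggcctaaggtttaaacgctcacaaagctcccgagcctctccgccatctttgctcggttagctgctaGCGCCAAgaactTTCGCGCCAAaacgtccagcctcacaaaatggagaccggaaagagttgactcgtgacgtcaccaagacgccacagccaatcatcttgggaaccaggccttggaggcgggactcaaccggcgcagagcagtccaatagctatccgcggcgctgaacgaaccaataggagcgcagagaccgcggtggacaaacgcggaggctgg
Pola2: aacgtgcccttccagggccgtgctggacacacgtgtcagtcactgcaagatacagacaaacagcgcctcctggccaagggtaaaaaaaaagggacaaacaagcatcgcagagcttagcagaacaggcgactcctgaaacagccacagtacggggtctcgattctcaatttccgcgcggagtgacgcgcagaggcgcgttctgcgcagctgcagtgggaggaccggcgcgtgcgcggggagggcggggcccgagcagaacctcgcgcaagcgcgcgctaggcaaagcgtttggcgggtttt
Rfc4: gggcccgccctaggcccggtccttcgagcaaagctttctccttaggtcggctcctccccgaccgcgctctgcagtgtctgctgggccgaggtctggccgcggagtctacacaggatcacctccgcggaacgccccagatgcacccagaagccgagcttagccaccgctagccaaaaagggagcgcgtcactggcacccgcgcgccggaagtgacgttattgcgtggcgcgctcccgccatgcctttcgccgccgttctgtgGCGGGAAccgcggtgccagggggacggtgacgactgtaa
Orc5: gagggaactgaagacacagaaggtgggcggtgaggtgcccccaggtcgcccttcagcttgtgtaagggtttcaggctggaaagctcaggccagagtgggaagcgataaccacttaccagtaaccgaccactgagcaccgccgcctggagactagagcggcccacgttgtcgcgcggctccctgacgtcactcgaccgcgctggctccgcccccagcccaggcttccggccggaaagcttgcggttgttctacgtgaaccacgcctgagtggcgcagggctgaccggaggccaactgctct

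The Cdc6 window held 1 such stretch, the Wdhd1 and Mcm5 windows held 2 each, the Rfc4 window held 1, and the Pola2 and Orc5 windows held none of these letters. Of the 46 windows of replication genes, 29 (63.0%) held E2F-type letters, against 9.57% of all 32851 windows and 15.8% of the 13569 windows of tested genes. The median GC content was 61.33% in replication gene windows, 60.0% in windows of tested genes and 52.67% in all windows. The letters CCAAT, searched on both strands, were in 54.3% of replication gene windows and in 37.4% of all windows, and the Mcm5 window held 3 copies. GGGCGG, also searched on both strands, was in 69.6% of replication gene windows, 59.5% of tested-gene windows and 35.7% of all windows. The 26 replication genes with E2F-type letters had a median log2 fold change of -1.05, with 20 lower and 2 higher in treated cells. The 13 genes whose windows lacked the letters had a median of -0.72, with 8 lower and 1 higher. Over all tested rows, 23.5% were lower and 23.0% were higher. The letters were in 66.7% of the 33 windows of replication genes called lower and in 53.8% of the other 13 windows. Matches of letters are descriptions of these windows and show no binding.

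Most of the replication genes had less RNA in treated cells. All 49 passed the filter on low counts. Tested with edgeR's quasi-likelihood test with Benjamini-Hochberg adjustment over all 16212 rows tested 39 of the 49 passed, where 46.6% of all tested rows did. By direction, 34 were lower in treated cells, where 23.5% of all tested rows were lower, and 5 were higher, where 23.0% of all tested rows were higher. The other 10 did not pass the threshold of 0.05 on the adjusted p. The median log2 fold change (treated over control) was -0.96 over the 49 genes and 0.06 over all tested rows. A log2 fold change of -1 or less was reached by 22 of the 34, a size that 5.18% of tested rows reached in the same direction. In 33 genes all treated libraries lay below all control libraries (27.1% of tested rows did so), in 5 all treated libraries lay above (30.4% of tested rows), and in 11 the groups overlapped. The 5 higher genes were Orc5, Gmnn, Gins4, Rfc4 and Rpa3, but Rpa3 was lower and Orc5 did not pass when counts were corrected for the GC content of transcripts. With that correction 38 genes were lower, where 23.5% of rows were, and 3 were higher, where 25.6% of rows were. Upper-quartile scaling moved the median of all genes to 0.18 and gave 60.8% of all calls as higher, against 49.5% with TMM scaling; it left 32 replication genes lower and 6 higher.

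**Figure D1:**
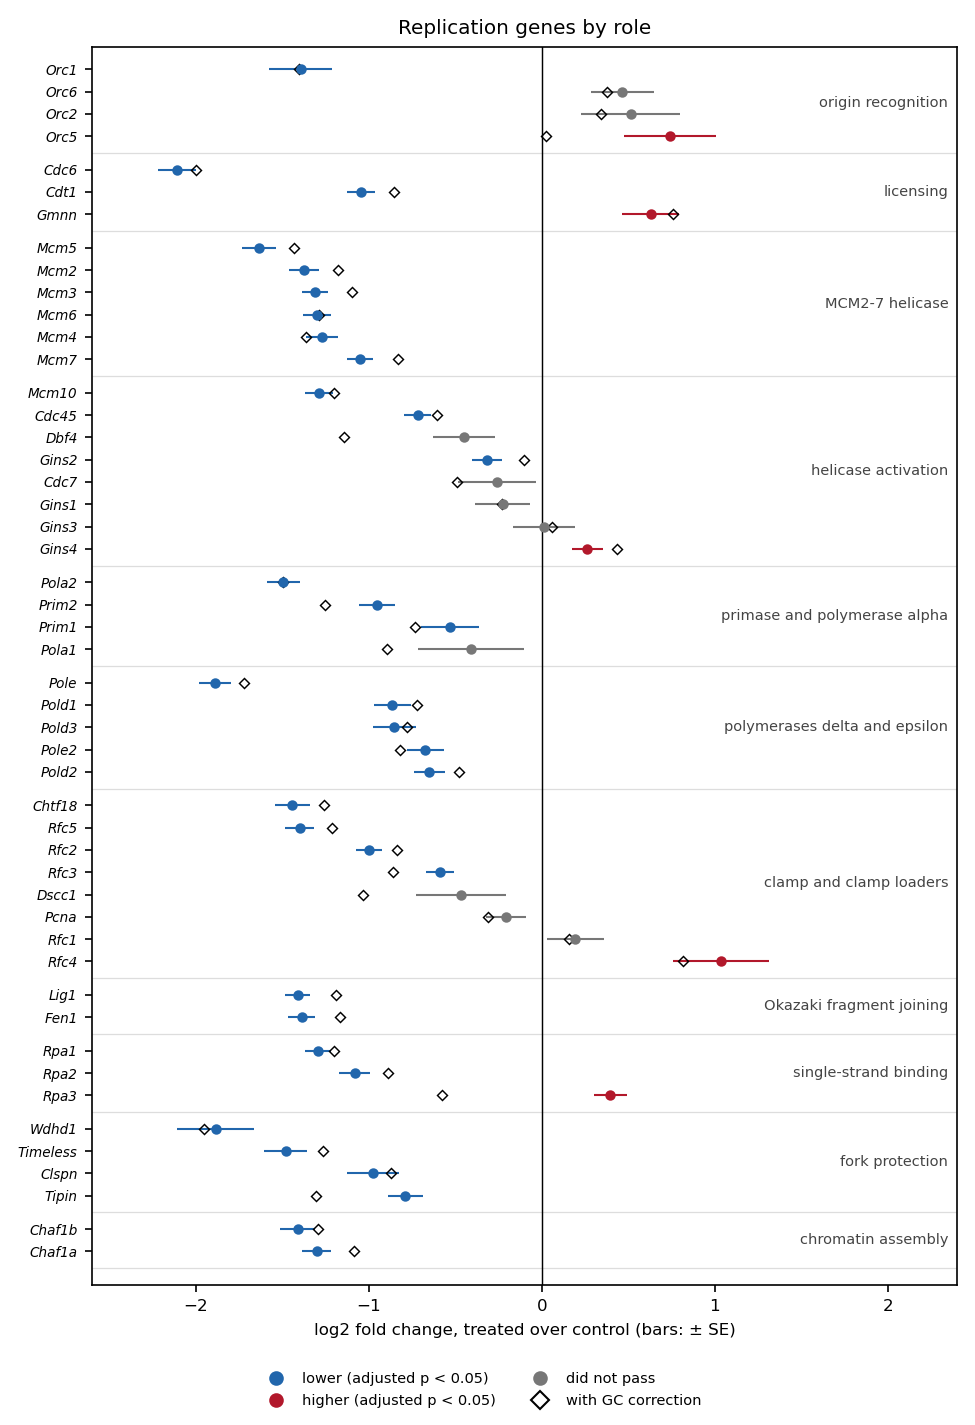
Log2 fold change (treated over control, with SE) of each of the 49 genes, grouped by role, with filled points from the test on uncorrected counts and open diamonds after GC correction. All 6 MCM2-7 subunits lie between -1.64 and -1.05, while origin recognition, licensing, helicase activation, clamp loader and single-strand binding genes spread on both sides of 0, and Rpa3 moves from 0.40 to -0.58 with the correction.

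Of the 4 origin recognition genes, Orc1 fell, Orc5 was higher, and Orc2 and Orc6 did not pass. Orc1 encodes the large ATPase subunit of the complex and had 0.751, 0.826 and 0.897 FPKM in treated libraries, against 2.47, 1.77 and 2.17 FPKM in control libraries. The groups did not overlap, and the log2 fold change was -1.40 ± 0.18 (SE; edgeR adjusted p = 0.000184). Orc6, a small subunit of the complex, had 10.1, 11.3 and 8.35 FPKM in treated libraries and 9.06, 5.03 and 6.97 FPKM in control libraries, with the groups overlapping (log2 fold change 0.47 ± 0.18, edgeR adjusted p = 0.0615; without control library 1, 0.65 with adjusted p = 0.0136; without control library 2, 0.27 with adjusted p = 0.192). The Orc6 to Orc1 ratio of FPKM was 13.45, 13.67 and 9.3 in treated libraries and 3.667, 2.849 and 3.216 in control libraries, so every treated library had the higher ratio. Orc2 had 2.49, 4.31 and 2.43 FPKM in treated libraries and 2.79, 1.30 and 2.24 FPKM in control libraries. Treated library 2 was the highest and control library 2 the lowest, and the Orc2 log2 fold change of 0.51 ± 0.29 (edgeR adjusted p = 0.170) was -0.04 without both of them (0.18 without treated library 2 alone and 0.26 without control library 2 alone).

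Orc5, another ATPase-fold subunit, had 2.03, 2.45 and 1.95 FPKM in treated libraries and 1.87, 0.766 and 1.13 FPKM in control libraries. The groups did not overlap, by a narrow margin between treated library 3 and control library 1. The log2 fold change was 0.74 ± 0.26 (edgeR adjusted p = 0.0422). It was 0.02 (adjusted p = 0.939) with the GC correction, and the call was lost without treated library 1 (0.78, adjusted p = 0.0853), treated library 2 (0.62, 0.148), treated library 3 (0.78, 0.0900), control library 2 (0.48, 0.109) or control library 3 (0.64, 0.148). In all, the call was lost in 10 of the 20 other settings that tested Orc5.

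Both licensing factors fell, and geminin, the inhibitor of Cdt1, was higher. Cdc6, the loader ATPase, had the lowest fold change of the 49 genes, with 2.14, 1.89 and 2.11 FPKM in treated libraries against 7.89, 8.81 and 9.19 FPKM in control libraries. Its treated mean of 2.05 ± 0.137 FPKM was 23.8% of the control mean of 8.63 ± 0.669 FPKM (SD, n = 3 each), and the log2 fold change was -2.11 ± 0.11 (edgeR adjusted p = 1.18e-06). The groups were far apart, with little spread inside each. Cdt1, which brings the MCM ring to the origin, had 19.8, 19.1 and 20.9 FPKM in treated libraries against 38.6, 41.5 and 40.3 FPKM in control libraries (log2 fold change -1.04 ± 0.08, edgeR adjusted p = 8.43e-06).

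Gmnn, which encodes geminin, had 22.0, 24.3 and 19.8 FPKM in treated libraries and 16.6, 9.79 and 15.4 FPKM in control libraries. All treated libraries lay above all control libraries, of which control library 2 was the lowest. The log2 fold change was 0.63 ± 0.17 (edgeR adjusted p = 0.0107), 0.76 with the GC correction (adjusted p = 0.0046), 0.38 without both libraries numbered 2 (adjusted p = 0.0216), and 0.54 without treated library 2, where the call was lost (adjusted p = 0.0533). The Cdt1 to Gmnn ratio of FPKM was 0.899, 0.786 and 1.06 in treated libraries and 2.32, 4.24 and 2.61 in control libraries. By the deposited FPKM, geminin RNA was thus about level with Cdt1 RNA in treated libraries and below it in every control library. The Cdc6 to Gmnn ratio was 0.0974, 0.0778 and 0.107 in treated libraries and 0.475, 0.900 and 0.596 in control libraries.

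All 6 subunits of the MCM2-7 ring, the motor of the replicative helicase, fell, and no treated library overlapped a control library for any of them. Summed over the 6 genes, the level was 130.7, 129.2 and 130.3 FPKM in treated libraries and 308, 321 and 317 FPKM in control libraries. The treated mean of the sum was 41.3% of the control mean. Mcm5 had the largest change of the 6, with 26.5, 23.7 and 28.5 FPKM in treated libraries against 76.4, 81.9 and 80.4 FPKM in control libraries (log2 fold change -1.64 ± 0.10, edgeR adjusted p = 2.32e-06). Mcm7 had the smallest, with 42.5, 43.5 and 42.8 FPKM in treated libraries against 85.0, 89.5 and 86.1 FPKM in control libraries (log2 fold change -1.05 ± 0.08, edgeR adjusted p = 5.28e-06). Mcm2 had a log2 fold change of -1.37 ± 0.09, Mcm3 of -1.31 ± 0.08, Mcm4 of -1.27 ± 0.09 and Mcm6 of -1.30 ± 0.08.

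The order of the subunits by mean FPKM was the same in both groups, from Mcm7 and Mcm5 down through Mcm3, Mcm2 and Mcm6 to Mcm4, but the proportions of the top pair differed. This order and the shares below rest on how the deposited FPKM was scaled for each gene. Mcm5 made up 20.2% ± 1.75 of the summed FPKM in treated libraries and 25.2% ± 0.348 in control libraries (SD, n = 3 each). The share of Mcm7 was 33.0% ± 0.617 in treated libraries and 27.6% ± 0.364 in control libraries. The Mcm5 to Mcm7 ratio was 0.623, 0.545 and 0.666 in treated libraries and 0.899, 0.916 and 0.933 in control libraries, without overlap. The shares of the other subunits differed by less than 1 percentage point, with Mcm3 at 17.6% in both groups, Mcm2 at 14.5% in treated and 15.1% in control libraries, Mcm6 at 8.89% in treated and 8.82% in control libraries, and Mcm4 at 5.83% in treated and 5.66% in control libraries.

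**Figure D2:**
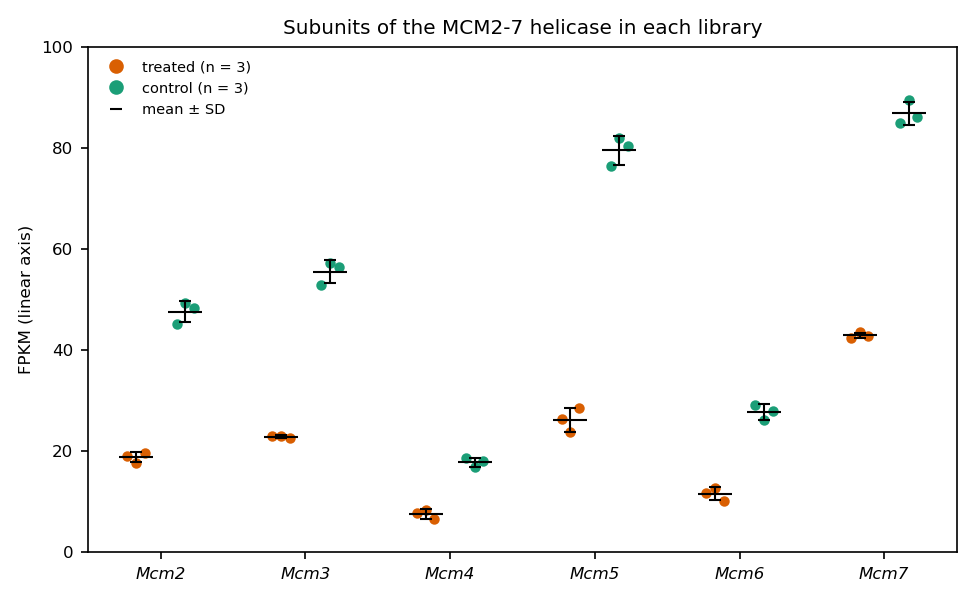
FPKM of Mcm2 to Mcm7 in each of the 3 treated and 3 control libraries (points), with mean and SD; the axis is linear. Every treated point lies below every control point of its gene, and the widest gap is that of Mcm5, at 23.7 to 28.5 FPKM in treated and 76.4 to 81.9 FPKM in control libraries.

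Of the 8 genes that turn the loaded ring into a moving helicase, Mcm10, Cdc45 and Gins2 fell, Gins4 was higher, and Cdc7, Dbf4, Gins1 and Gins3 did not pass. Mcm10, a factor needed for origin firing, had 3.05, 3.08 and 2.79 FPKM in treated libraries against 7.02, 7.27 and 6.95 FPKM in control libraries (log2 fold change -1.29 ± 0.08). Cdc45, a helicase subunit, had 13.4, 12.6 and 12.6 FPKM in treated libraries against 21.4, 21.3 and 19.3 FPKM in control libraries (-0.72 ± 0.08). The groups stood apart for both genes. The 4 subunits of GINS, the other helicase partner, had log2 fold changes on both sides of 0. Gins2 had 9.52, 9.80 and 10.8 FPKM in treated libraries and 12.7, 11.5 and 12.4 FPKM in control libraries (log2 fold change -0.32 ± 0.09, edgeR adjusted p = 0.0140). The fold change was -0.10 (adjusted p = 0.331) with the GC correction and -0.28 (adjusted p = 0.0644) without treated library 1. The Gins2 call was lost in 6 of 21 other settings, among them upper-quartile scaling (-0.19, edgeR adjusted p = 0.0967) and quantile normalization (-0.20, limma-voom adjusted p = 0.0850). Gins4 had 22.8, 24.6 and 21.7 FPKM in treated libraries and 17.99, 17.95 and 20.1 FPKM in control libraries (log2 fold change 0.26 ± 0.09, edgeR adjusted p = 0.0394). The Gins4 call held with the GC correction (0.44, adjusted p = 0.00264). It was lost without treated library 1 (0.27, adjusted p = 0.0988), treated library 2 (0.21, 0.131), control library 1 (0.20, 0.156), control library 2 (0.24, 0.112) or control library 3 (0.29, 0.0626), with the replicate number as a block (0.26, 0.111) and with DESeq2 (0.26, 0.0540). In all, it was lost in 8 of 21 other settings. Gins1 had a log2 fold change of -0.23 ± 0.16 (adjusted p = 0.271) and Gins3 of 0.01 ± 0.18 (adjusted p = 0.962), and their groups overlapped.

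Neither subunit of the origin-firing kinase passed. The catalytic subunit Cdc7 had 1.10, 1.63 and 0.906 FPKM in treated libraries and 1.31, 1.25 and 1.68 FPKM in control libraries (log2 fold change -0.26 ± 0.23, edgeR adjusted p = 0.382; -0.54 without treated library 2, -0.11 without treated library 3 and -0.15 without control library 3, none passing). Its activator Dbf4 had 2.22, 3.10 and 1.73 FPKM in treated libraries and 3.54, 2.81 and 3.04 FPKM in control libraries. Treated library 2 lay among the control values, and the other treated libraries lay below them. The Dbf4 log2 fold change was -0.45 ± 0.18 (edgeR adjusted p = 0.0632), and it was called at -1.15 (adjusted p = 1.79e-05) with the GC correction and at -0.71 (adjusted p = 0.00338) without treated library 2; without treated library 3 it was -0.29 (adjusted p = 0.185).

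Of the polymerase alpha-primase genes, which start each new strand with a short RNA-DNA primer, Pola2, Prim1 and Prim2 fell and Pola1 did not pass. Pola2, the accessory subunit, had 4.40, 3.92 and 4.29 FPKM in treated libraries against 10.7, 12.4 and 11.6 FPKM in control libraries (log2 fold change -1.49 ± 0.10). The large primase subunit Prim2 had 3.00, 3.48 and 2.83 FPKM in treated libraries against 6.37, 5.67 and 5.56 FPKM in control libraries (-0.96 ± 0.10). No treated library reached a control value for either gene. Prim1, the catalytic primase subunit, had 4.15, 5.30 and 3.79 FPKM in treated libraries and 7.87, 5.07 and 5.78 FPKM in control libraries, so that treated library 2 lay above control library 2. Its log2 fold change of -0.53 ± 0.17 (edgeR adjusted p = 0.0254) did not pass without treated library 1 (-0.49, adjusted p = 0.0915), treated library 3 (-0.46, 0.0981) or control library 1 (-0.37, 0.0827), nor with the replicate number as a block (-0.52, 0.0508). The Prim1 call was lost in 9 of 21 other settings, among them upper-quartile scaling (-0.41, edgeR adjusted p = 0.0787) and scaling by library totals only (-0.46, 0.0719). Pola1, the catalytic polymerase subunit, was low in all libraries, with 0.246, 0.405 and 0.165 FPKM in treated libraries and 0.322, 0.302 and 0.436 FPKM in control libraries (-0.41 ± 0.31, adjusted p = 0.305; with the GC correction -0.90, adjusted p = 0.0143; -0.82, adjusted p = 0.0418, without treated library 2; -0.17 without treated library 3 and -0.27 without control library 3, neither passing).

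All 5 of the chosen genes of polymerases delta and epsilon, which extend the lagging and leading strands, fell without overlap between the groups. Pole, the catalytic subunit of polymerase epsilon, fell most, with 1.71, 1.81 and 1.49 FPKM in treated libraries against 5.96, 6.34 and 5.83 FPKM in control libraries. Its treated mean was 27.6% of the control mean, and the log2 fold change was -1.89 ± 0.09 (edgeR adjusted p = 1.09e-06). Pole2, its partner subunit, had 5.17, 5.40 and 4.54 FPKM in treated libraries against 8.24, 7.07 and 8.21 FPKM in control libraries (-0.67 ± 0.11). The Pole to Pole2 ratio was 0.331, 0.335 and 0.329 in treated libraries and 0.723, 0.897 and 0.710 in control libraries, so the pair did not keep its proportion. For polymerase delta, the catalytic subunit Pold1 had a log2 fold change of -0.87 ± 0.11 (30.7 FPKM in treated and 54.6 in control cells on average), Pold2 of -0.65 ± 0.09 and Pold3 of -0.85 ± 0.12. The subunits outside the 49 genes went both ways. Pold4 was higher, with 259 ± 17.6 FPKM in treated and 145 ± 3.82 FPKM in control cells (0.81 ± 0.09, and 0.998 with the GC correction). Pole4 was higher (0.40 ± 0.09) but did not pass with the GC correction (0.15, edgeR adjusted p = 0.0906). Pole3 was lower (-0.44 ± 0.08).

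The sliding clamp gene Pcna, with the highest FPKM of the 49 in treated cells (in control cells Mcm7 was higher), did not pass, while 4 of the 7 clamp loader genes fell and Rfc4 was higher. Pcna had 71.9, 84.4 and 63.9 FPKM in treated libraries and 96.0, 70.7 and 81.3 FPKM in control libraries. The groups overlapped, with treated library 2 above 2 of the 3 control libraries. The log2 fold change was -0.21 ± 0.12 (edgeR adjusted p = 0.170), -0.33 without treated library 2 (adjusted p = 0.0518), -0.12 without control library 1 (adjusted p = 0.422) and -0.31 with the GC correction, where it passed (adjusted p = 0.00475). A pseudogene of Pcna has a row of its own, and reads may be split between the copies.

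The clamp loader RFC opens the PCNA ring, and its subunits had log2 fold changes on both sides of 0. Rfc2 had 13.3, 12.9 and 14.1 FPKM in treated libraries against 26.3, 25.9 and 26.5 FPKM in control libraries (log2 fold change -0.999 ± 0.08), and Rfc5 had 4.87, 4.82 and 4.98 FPKM in treated libraries against 12.1, 12.8 and 12.8 FPKM in control libraries (-1.40 ± 0.08). Rfc3 fell less (-0.59 ± 0.08), and the large subunit Rfc1 did not pass (0.19 ± 0.17, edgeR adjusted p = 0.375; -0.04 without both libraries numbered 2). Rfc4 had 13.6, 14.8 and 13.1 FPKM in treated libraries and 10.1, 3.60 and 6.26 FPKM in control libraries. All treated values lay above all control values, and the control libraries spread widely, with control library 2 the lowest. The Rfc4 log2 fold change was 1.03 ± 0.28 (edgeR adjusted p = 0.0123), 0.82 with the GC correction (adjusted p = 0.0196) and 0.96 without control library 3, where the call was lost (adjusted p = 0.0571). The Rfc4 to Rfc2 ratio was 1.03, 1.15 and 0.930 in treated libraries and 0.383, 0.139 and 0.236 in control libraries.

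The Rfc4 row shares 194 bases with the row of Eif4a2 on the opposite strand, a translation initiation helicase gene with 21.0, 26.3 and 18.7 FPKM in treated libraries and 3.12, 2.50 and 3.34 FPKM in control libraries. The Orc6 row likewise shares 171 bases with Vps35, which had 8.67, 13.0 and 6.99 FPKM in treated libraries and 1.84, 1.09 and 1.77 FPKM in control libraries. Both neighbours were higher in treated cells (log2 fold changes of 2.84 and 2.57). Longer overlaps with a row on the opposite strand included 19046 bases of the Orc2 row with Nif3l1, which was lower in treated cells (-0.79). The Gins2 row shares 2758 bases with Gse1, which was higher (0.38). The library kit marked the strand, but whether the counting used it is not given in the sources used here, and the part of these neighbours in the Rfc4 and Orc6 values was not tested. In all, 20 of the 49 rows overlap another row, and 9 overlap a row with a mean of at least 1000 estimated counts.

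The alternative clamp loader, which swaps Rfc1 for a complex with Chtf18 and Dscc1 and works in sister chromatid cohesion, was split between a called and an uncalled gene. Chtf18 had 5.44, 4.83 and 5.84 FPKM in treated libraries against 13.7, 14.9 and 14.2 FPKM in control libraries (log2 fold change -1.44 ± 0.10). Dscc1 had 0.458, 0.816 and 0.454 FPKM in treated libraries and 0.717, 0.711 and 0.912 FPKM in control libraries. Treated library 2 alone lay among the control values of Dscc1, and its log2 fold change was -0.47 ± 0.26 (edgeR adjusted p = 0.167), -0.81 without that library (adjusted p = 0.0216) and -1.03 with the GC correction (adjusted p = 0.0028).

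Both Okazaki fragment joining genes fell by similar amounts. The flap endonuclease Fen1 had 14.0, 13.4 and 13.0 FPKM in treated libraries against 32.9, 35.3 and 35.0 FPKM in control libraries (log2 fold change -1.39 ± 0.08). The nick-sealing ligase Lig1 had 20.4, 19.5 and 19.0 FPKM in treated libraries against 49.4, 52.1 and 51.3 FPKM in control libraries (-1.41 ± 0.07, edgeR adjusted p = 1.18e-06). The spread within each group was small beside the gap between the groups.

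The 3 subunits of RPA, the trimer that coats single-stranded DNA, went in different directions without the GC correction, and all 3 were lower with it. Rpa1, the large DNA-binding subunit, had 24.5, 22.7 and 24.1 FPKM in treated libraries against 56.9, 57.9 and 55.9 FPKM in control libraries (log2 fold change -1.30 ± 0.08). Rpa2, the subunit phosphorylated at stalled forks, had 10.7, 10.8 and 11.9 FPKM in treated libraries against 23.0, 23.8 and 22.2 FPKM in control libraries (-1.08 ± 0.09). Rpa3, the smallest subunit, had 32.4, 38.6 and 32.7 FPKM in treated libraries and 26.6, 23.6 and 26.6 FPKM in control libraries, with every treated value above every control value. Rpa3 was higher at 0.40 ± 0.10 (edgeR adjusted p = 0.00686) but lower at -0.58 (adjusted p = 0.00196) with the GC correction, so its direction depends on that correction. The longest Rpa3 transcript in the annotation is 682 bases long with 34.2% GC. The Rpa3 to Rpa1 ratio of FPKM, without correction, was 1.32, 1.70 and 1.36 in treated libraries and 0.468, 0.409 and 0.476 in control libraries.

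All 4 fork protection genes and both chromatin assembly genes fell, and no treated library overlapped a control library in any of the 6. Timeless, which forms a fork-stabilising complex with Tipin, had 1.55, 1.34 and 1.62 FPKM in treated libraries against 3.91, 4.22 and 4.20 FPKM in control libraries (log2 fold change -1.48 ± 0.12). Tipin had 11.4, 13.0 and 10.7 FPKM in treated libraries against 19.0, 20.3 and 19.7 FPKM in control libraries (-0.79 ± 0.10, and -1.31 with the GC correction). The checkpoint mediator Clspn had 1.27, 1.43 and 0.961 FPKM in treated libraries against 2.46, 2.13 and 2.44 FPKM in control libraries (-0.98 ± 0.15). Wdhd1, which links the helicase to polymerase alpha, ranked with Cdc6 and Pole among the genes that fell most. It had 0.682, 0.830 and 0.414 FPKM in treated libraries against 2.47, 1.99 and 2.50 FPKM in control libraries (-1.89 ± 0.22). The subunits of CAF-1, which places histones on new DNA behind the fork, changed alike, with Chaf1a at -1.30 ± 0.09 (11.1, 10.1 and 11.3 FPKM in treated libraries, 24.9, 26.9 and 26.5 in control libraries) and Chaf1b at -1.41 ± 0.10 (4.45, 5.10 and 4.97 FPKM in treated libraries, 12.7, 13.3 and 11.6 in control libraries).

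**Figure D3:**
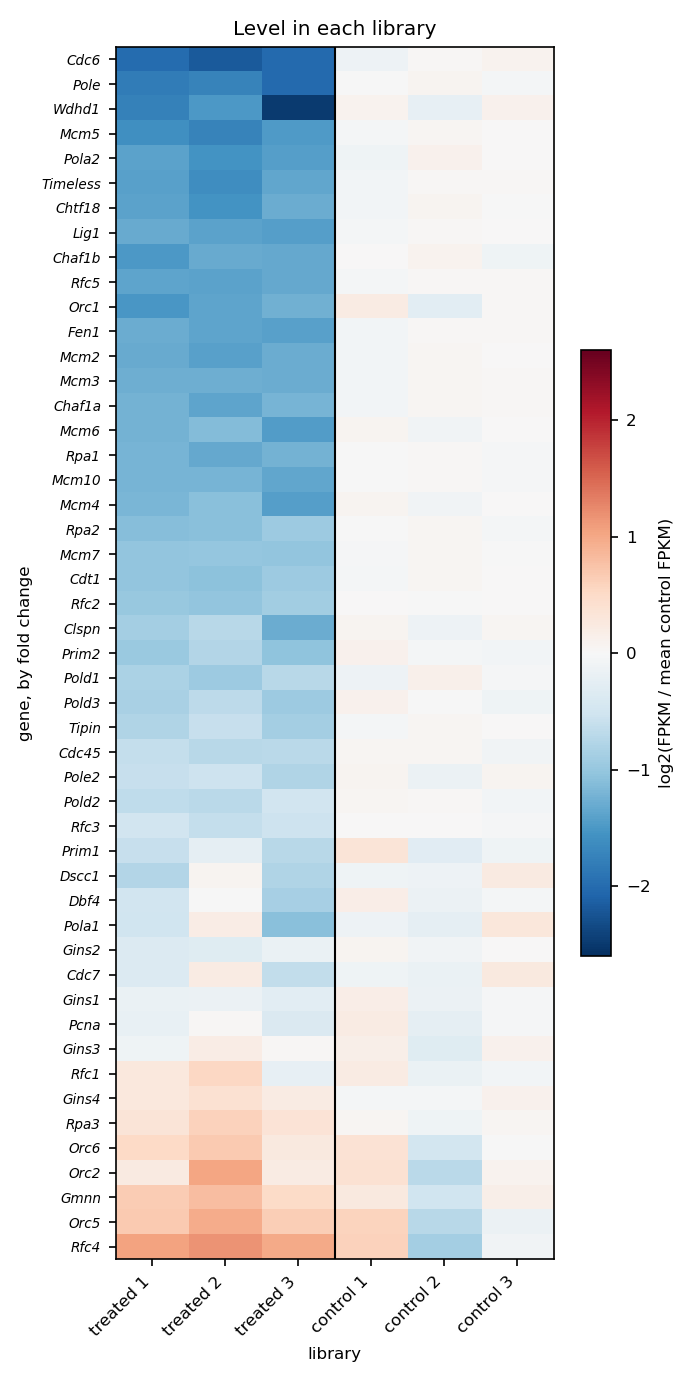
Level of each of the 49 genes in each library as log2 of FPKM over the mean control FPKM, genes ordered by fold change, treated libraries left of the line. The median over the 49 genes is -0.88, -0.75 and -0.95 in treated libraries 1 to 3 and 0.00, -0.02 and 0.01 in control libraries 1 to 3, and the genes with overlapping groups sit in the lower rows.

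Relative to each gene's control mean, the median level of the 49 genes was -0.88, -0.75 and -0.95 on the log2 scale in treated libraries 1 to 3, and 0.00, -0.02 and 0.01 in control libraries 1 to 3. In treated library 1, 41 of the 49 genes were below their control mean, in treated library 2, 36, and in treated library 3, 41. Treated library 2 was thus the least shifted, and it was the library among the control values for Dbf4, Prim1 and Dscc1. The fold changes of the 49 genes were related to the GC content of their longest transcript (Spearman's rho -0.51 and Pearson's r -0.46, n = 49 genes, which share the same 6 libraries), and over the 15760 tested rows with a transcript Spearman's rho was -0.27. After the GC correction the values for the 49 genes were -0.14 and -0.14. Transcript length gave Spearman's rho -0.46 with the fold changes of the 49 genes, and how length and GC content relate was not tested. Within libraries, the deviation of rows from their mean had a Spearman's rho with GC content of -0.21, -0.44 and 0.01 in treated libraries 1 to 3 and 0.08, 0.37 and 0.16 in control libraries 1 to 3. The libraries numbered 2 lay at the ends of this range, on opposite sides.

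Split at the median GC content of 48.7%, 22 of the 24 genes above it were lower in treated cells and 2 were higher (Gmnn and Gins4), with a median log2 fold change of -1.30. Of the 24 genes below it, 11 were lower, 3 were higher and 10 did not pass, with a median of -0.46. With the correction the medians came closer, at -1.09 above and -0.80 below, and 21 of the 24 genes above and 16 of the 24 below were lower. Below the median GC content, the number of genes called lower and the size of the median both depended on the correction. What causes the relation to GC content was not tested.

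**Figure D4:**
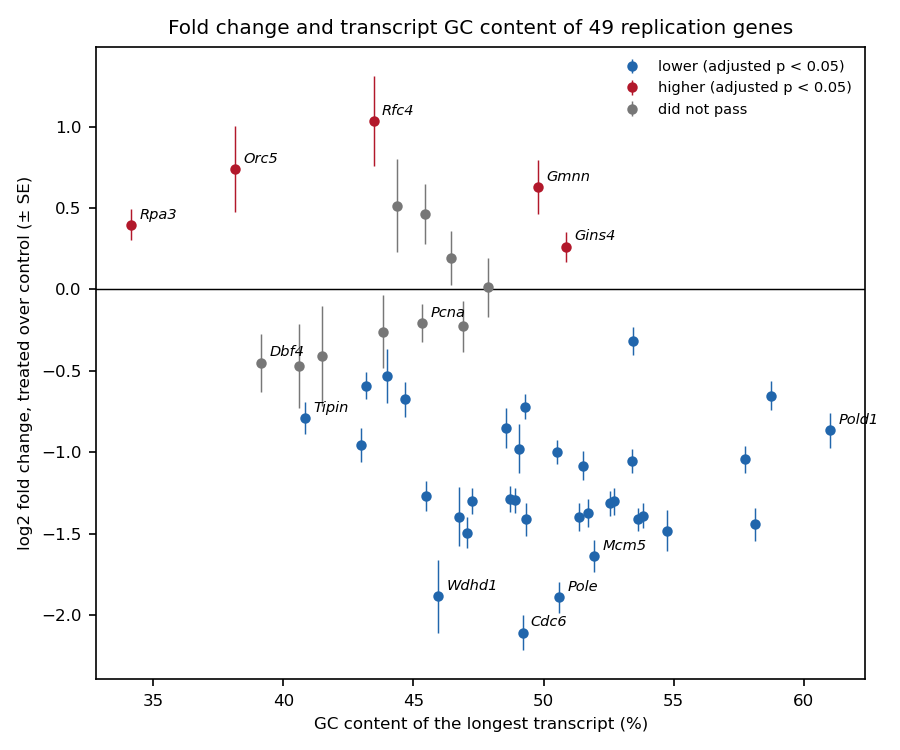
Log2 fold change (treated over control, with SE) of the 49 genes against the GC content of the longest transcript in percent, coloured by call. All 10 genes that did not pass lie below the median GC content of 48.7%, as do Orc5, Rfc4 and Rpa3, which were higher without the GC correction (Rpa3 was lower with it).

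Further replication factors, listed from general knowledge, went in both directions. Of 32 genes, 18 were lower, 7 were higher and 7 did not pass, where 23.5% of all tested rows were lower and 23.0% higher, and the median log2 fold change was -0.57. The histone chaperone Asf1b had 16.8 ± 0.211 FPKM in treated cells and 58.1 ± 2.24 FPKM in control cells (SD, n = 3 each; log2 fold change -1.82 ± 0.08). The maintenance methyltransferase Dnmt1 (-1.54 ± 0.08), its partner Uhrf1 (-1.42 ± 0.09) and the helicase Recql4 (-1.42 ± 0.10) also fell. The most abundant factor that did not pass was the ribonuclease subunit Rnaseh2c, at 19.5 ± 0.613 FPKM in treated cells and 18.7 ± 0.986 FPKM in control cells (edgeR adjusted p = 0.823; with the GC correction 0.21, adjusted p = 0.0443). The remaining origin recognition subunits Orc3 (1.08) and Orc4 (1.44), chosen after their values were seen, were higher, and with the GC correction Orc3 was at 0.36 and did not pass (adjusted p = 0.0582) while Orc4 was at 0.58 (adjusted p = 0.000722).

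Of 12 licensing regulators and origin kinases, 8 were lower (23.5% of all tested rows), 3 were higher (23.0% of all tested rows) and 1 did not pass. Cyclin A2 (Ccna2, -1.17 ± 0.13), its kinase Cdk2 (-0.80 ± 0.09) and the activating phosphatase Cdc25a (-0.85 ± 0.12) fell. The gene of cyclin E2, Ccne2, rose, with 3.93 ± 1.54 FPKM in treated cells and 0.616 ± 0.208 FPKM in control cells (log2 fold change 2.64 ± 0.31, and 1.75 with the GC correction). The more abundant cyclin E1 gene, Ccne1, fell, with 14.8 ± 1.86 FPKM in treated cells and 21.7 ± 1.71 FPKM in control cells (-0.59 ± 0.12, and -0.38 with the GC correction). Skp2, which marks licensing factors for degradation, did not pass (1.57 ± 0.311 FPKM in treated and 1.57 ± 0.0288 FPKM in control cells, edgeR adjusted p = 0.831). Of 10 replication checkpoint genes, 5 were lower, 1 was higher and 4 did not pass, where 46.6% of all tested rows were called, 23.5% lower and 23.0% higher. The kinase gene Wee1 (-0.90 ± 0.14) and the clamp gene Rad9a (-0.79 ± 0.10) fell. Atrip, the partner of the ATR kinase, fell without the GC correction (-0.45 ± 0.11) and did not pass with it (-0.24, edgeR adjusted p = 0.0970). Etaa1, an ATR activator, rose (2.49 ± 0.40, and 1.88 with the GC correction), at 1.06 ± 0.333 FPKM in treated and 0.185 ± 0.103 FPKM in control cells. Topbp1, of the same list, fell with overlapping groups (-0.60 ± 0.19, and -0.64 with the GC correction), at 1.30 ± 0.362 FPKM in treated and 1.92 ± 0.349 FPKM in control cells. Rad17 did not pass (0.44, edgeR adjusted p = 0.0809; -0.46, adjusted p = 0.0802, with the GC correction).

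Of 12 regulators of quiescence and S-phase entry, 7 were lower, 2 were higher and 3 did not pass, against the same shares of 23.5% lower and 23.0% higher over all tested rows. Among E2F factors, the atypical repressors E2f8 (-1.49 ± 0.10) and E2f7 (-0.84 ± 0.11) and the pocket-protein partner E2f4 (-0.56 ± 0.07) fell. Of the dimerisation partners, Tfdp2 rose (0.86 ± 0.11, and 0.77 with the GC correction). The more abundant Tfdp1 fell, with 18.5 ± 2.22 FPKM in treated cells and 25.9 ± 2.33 FPKM in control cells (-0.52 ± 0.09, and -0.53 with the GC correction). The activator E2f1 did not pass, at 43.5 ± 2.11 FPKM in treated cells and 43.7 ± 2.63 FPKM in control cells (edgeR adjusted p = 0.712). The less abundant activators E2f2 (-0.71 ± 0.14) and E2f3 (-0.52 ± 0.16) fell, also with the GC correction (-0.51 and -0.41).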

How the data were processed

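RNA of 3 treated and 3 control libraries was sequenced after oligo-dT selection with a dUTP kit that marks the strand, per the labels' protocols. The authors deposited, per the file headers, an FPKM value (a fragment level corrected for the length of the transcript and the size of the library) and an estimated count for each gene and library. The deposited estimated counts are whole numbers, and a count of 4 occurred 4054 times, against 2604 times for 3 and 2475 times for 5, so that low values come partly in multiples of 4. Named, without roles, in the submitters' processing notes are StringTie 2.1.6, HISAT2 2.2.1, edgeR, DESeq2 and cutadapt 1.9. For build, annotation release and strand use in counting: not given in the sources used here.

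Members were matched by gene symbol. The members and lists were chosen with earlier results of these data known. Groups were compared with the quasi-likelihood test of edgeR 4.0.16 (R 4.3.3) on the deposited counts, unpaired, with edgeR's default filter (16212 rows kept), TMM scaling and Benjamini-Hochberg adjustment over all rows kept, 2-sided, at 0.05. SE is the size of the log2 fold change divided by the root of F. FPKM gives levels with SD. Since FPKM is divided by transcript length, levels can be set side by side between genes. The GC correction used a loess fit (span 0.4) of log counts on the GC content of each gene's longest transcript in the GRCm38 annotation, found for 97.2% of tested rows. Other settings were limma 3.58.1, DESeq2 1.42.0, other scalings and filters, a replicate block and left-out libraries. On simulated counts that held a GC trend, the fit without the GC correction called many more unchanged genes than the fit with it. That trend was made the same in all treated libraries, whereas the measured libraries differed in their relation to GC content. The simulation therefore cannot show how well the correction suits the deposited counts. All 49 members are named. From each other list except those of cell type markers, up to 4 called genes with the smallest p and the most abundant uncalled gene are named. The cell type markers named were not chosen by this rule. Orc3, Orc4, Pold4, Pole3, Pole4, Ccne1, E2f2, E2f3, Tfdp1 and Topbp1 are also named, chosen after their values were seen.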

Additional observations from a re-analysis of the deposited data

How the results depend on the processing

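Of the 34 replication genes called lower, 32 were called lower under every alternative that tested them; the exceptions were Gins2 and Prim1. The number called lower was 25 (of 33 tested) when rows needed a mean FPKM of at least 5, and 32 to 38 under the other alternatives, 32 to 37 when single libraries were left out. The number called higher, 5, was 2 with limma on log2(FPKM + 1) and no filter, 3 with the GC correction, 3 with the replicate block and GC correction together, 3 without both libraries numbered 2, and 2 to 5 with single libraries left out. Over all rows, 7548 calls became 4410 at a mean FPKM of at least 5, where fewer rows were tested, and 6073 to 7264 with single libraries left out. The further replication factors called lower, 18, became 11 at that filter, where fewer were tested. Deviations of same-numbered libraries from their group means had correlations of 0.0399, -0.103 and 0.00645, and those of differently numbered libraries ranged from -0.0895 to 0.0814. The labels do not state whether a number marks a shared culture or day, and these values cannot settle it. The replicate block gave 6275 calls over all rows, 33 replication genes lower and 4 higher.

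Directions turned for genes that had not passed: Orc2 (-0.038) and Rfc1 (-0.037) without both libraries numbered 2, and Gins3 with quantile normalization (-0.20), without both libraries numbered 2 (-0.18), and from -0.12 to 0.084 with single libraries left out. Rpa3 turned to -0.58 with the GC correction and to -0.58 with the replicate block and GC correction together. The cause was not tested. The lowest of the 49 genes was Pola1, at 0.272 FPKM in treated cells on average, and what depth limits there was not tested.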
